A study of Homo sapiens with 6 samples.

Results

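The nuclear pore subunits, the importins and exportins that carry cargo through the pore, and the genes of the Ran GTPase cycle were taken from the deposited table by their gene symbols. A row was a member if its symbol began with NUP and a number, KPNA, KPNB, IPO and a number, XPO and a number, TNPO or RANBP, or was RAN, RANGAP1, RCC1, CSE1L, TPR, SEH1L, NDC1, POM121, AAAS or RAE1. The stress gene NUPR1 was left out. Of 11911 rows, 60 were members, of which 58 were protein-coding genes, 1 was a pseudogene (IPO5P1) and 1 an antisense transcript (NUP50-AS1). All 60 passed the filter on low values, with 110 to 40192 reads, inferred from the steps in the values, behind each value.

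RNA was sequenced from RS4;11, an established human B-cell precursor acute lymphoblastic leukemia line that carries the KMT2A::AFF1 fusion. One group held 3 libraries of cells deprived of asparagine for 16 hours, and the other 3 libraries of cells with asparagine. The labels give all 6 samples the same genotype and enter the same asparagine-free medium with dialyzed serum for all of them, so the serum of the cells with asparagine is not clear. The table's column name for the depleted group may abbreviate asparaginase, which the labels do not settle. No label says that libraries of a group came from separate cultures, so the p-values rest on library-to-library spread that may be technical only. Of 12 B-precursor markers, 10 were measured, with summed levels of 3156 to 4032 CPM in depleted libraries and 3979 to 4234 CPM with asparagine. Single markers moved both ways: VPREB1 (log2 fold change -1.91), IGLL1 (-1.86), CD79B and DNTT fell, PAX5 (0.41) rose and 5 did not pass. All 6 markers of KMT2A-rearranged leukemia were measured, summing to 1340.1 to 1749 CPM in depleted libraries and 1359 to 1396 CPM with asparagine. CSPG4 (-2.92) fell, PROM1 (0.95), FLT3 (0.84) and MEIS1 (0.45) rose, and 2 did not pass. The part of these shifts in the results below was not tested. Of markers of other cells, 0 of 6 T-cell and 0 of 5 erythroid markers and 2 of 6 myeloid markers had a row, those 2 summing to 5.15 to 12.7 CPM in depleted libraries and 8.59 to 12.4 CPM with asparagine.

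The nuclear pore is a ring of repeated scaffold subunits, a membrane anchor, a central channel lined with phenylalanine-glycine repeats, filaments toward the cytoplasm and a basket toward the nucleus. Importins bind cargo in the cytoplasm and release it when they meet Ran in its GTP form in the nucleus, and exportins bind cargo together with that form. RCC1 on chromatin loads Ran with GTP, and RANGAP1 with RANBP1 at the cytoplasmic side makes it hydrolyse the GTP. Fast-growing leukemia cells move large amounts of ribosomal protein, histone and RNA through these pores, and XPO1 is a drug target in blood cancers.

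In depleted cells, 20 of the 60 members fell and 4 rose (limma, Benjamini-Hochberg adjusted p under 0.05 over 11892 genes), with a median log2 fold change of -0.30. Over all genes tested, 26.2% fell and 25.1% rose, with a median of 0.0098. Among the members 33.3% fell and 6.67% rose, so the share that fell was somewhat above that of all genes and the share that rose was well below it. Pore subunits had 10 of 27 members lower and 0 higher, Ran cycle genes 4 of 5 lower and 0 higher, and transport receptors 6 of 24 lower and 2 higher. The other 2 that rose were RANBP9 and NUP50-AS1. By the model, 8 members fell by at least 1 on the log2 scale, NUP62, RANBP1, NUP85, NUP210, IPO4, RAN, NUP93 and RANBP3, and 0 rose by as much. In bulk RNA, fewer cells that express a gene and less of its RNA per cell cannot be told apart.

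**Figure D1:**
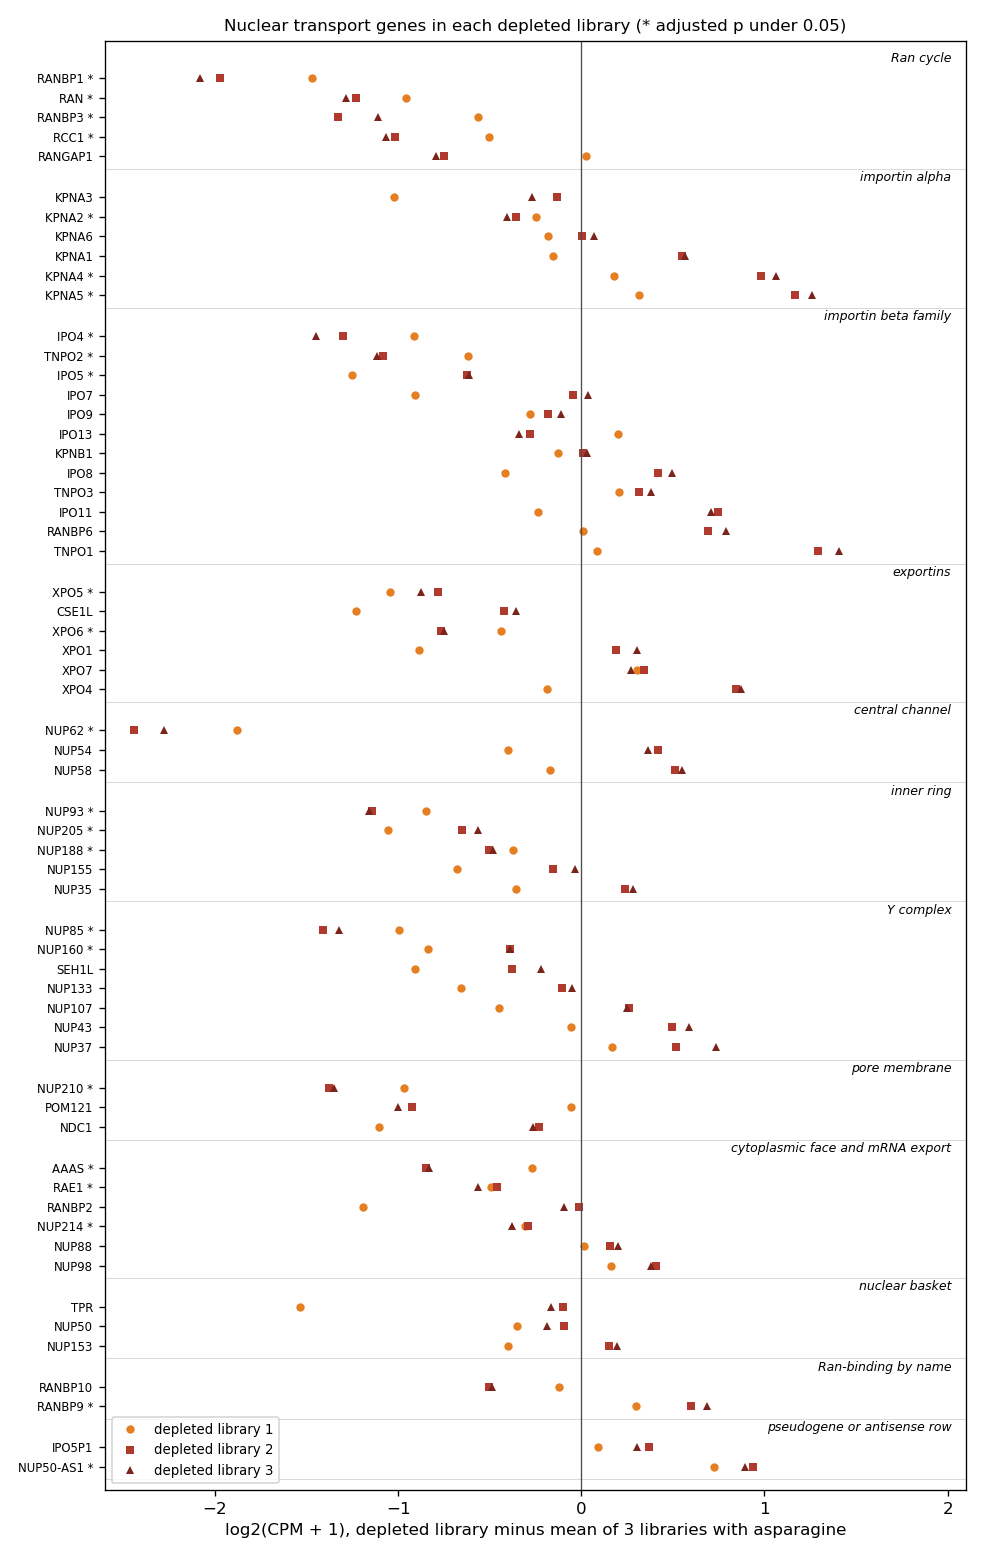
Each row is a member, grouped by role, and each point a depleted library, on the x axis as log2(CPM + 1) minus the mean of the 3 libraries with asparagine. Asterisks mark the 24 members with a limma adjusted p under 0.05. NUP62 and RANBP1 lie farthest to the left, and library 1 often stands apart from libraries 2 and 3.

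Depleted library 1 differed from depleted libraries 2 and 3, as it does over all genes (Pearson's r of log2 values 0.94 and 0.934 with them, 0.996 between them). In library 1, 42 members lay below all 3 libraries with asparagine and 9 above them all. In library 2 these counts were 31 and 23, and in library 3 they were 30 and 24. The members IPO8, KPNA1, NUP107, NUP153, NUP35, NUP54, NUP58 and XPO1, 8 in all, were below every library with asparagine in library 1 and above every such library in libraries 2 and 3. IPO13 showed the opposite pattern. These counts by library were not made over all genes, so they have no share of all genes beside them. The members' median difference in log2(CPM + 1) from the mean with asparagine was -0.39, -0.12 and -0.14 in depleted libraries 1, 2 and 3. Over all genes these medians were 0.016, -0.0012 and -0.0059. The groups did not overlap for 27 members that were lower and 8 that were higher, against 30.8% and 30.2% of all genes. Without depleted library 1, 28 members were lower (46.7%) and 22 higher (36.7%), against 41.3% and 40.5% of all genes.

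Values in the depleted libraries went with the GC content of the transcripts, more so in libraries 2 and 3. Across the 59 members with a value, from 37.7% to 60.3% GC, Pearson's r between GC content and log2 fold change was -0.63, against -0.47 over 11352 genes. Both are descriptions over genes that share the same libraries. All genes were also split by GC content into 5 classes with the same number of genes. In the class lowest in GC (up to 42.5%) 2 of 17 members rose and 0 fell, where 37.9% of all genes in the class rose and 5.02% fell. In the next class (up to 47.2%) 3 of 11 members fell and 1 rose, where 14.2% fell and 38.0% rose. In the middle class (47.3% to 52.9%) 8 of 18 members fell and 0 rose, where 27.2% of all genes fell and 27.6% rose. In the fourth class (52.9% to 59.1%) 8 of 12 members fell and 0 rose, where 39.9% fell and 14.1% rose. The class highest in GC held 1 member, IPO4, which fell, where 46.0% of all genes fell and 6.75% rose. After a correction that removed the GC trend from each library, 37 of 59 members were lower and 6 higher, which is 62.7% and 10.2%, against 34.4% and 35.1% of all genes. The median of the members was then -0.33. The part of GC content in the other results was not tested.

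**Figure D2:**
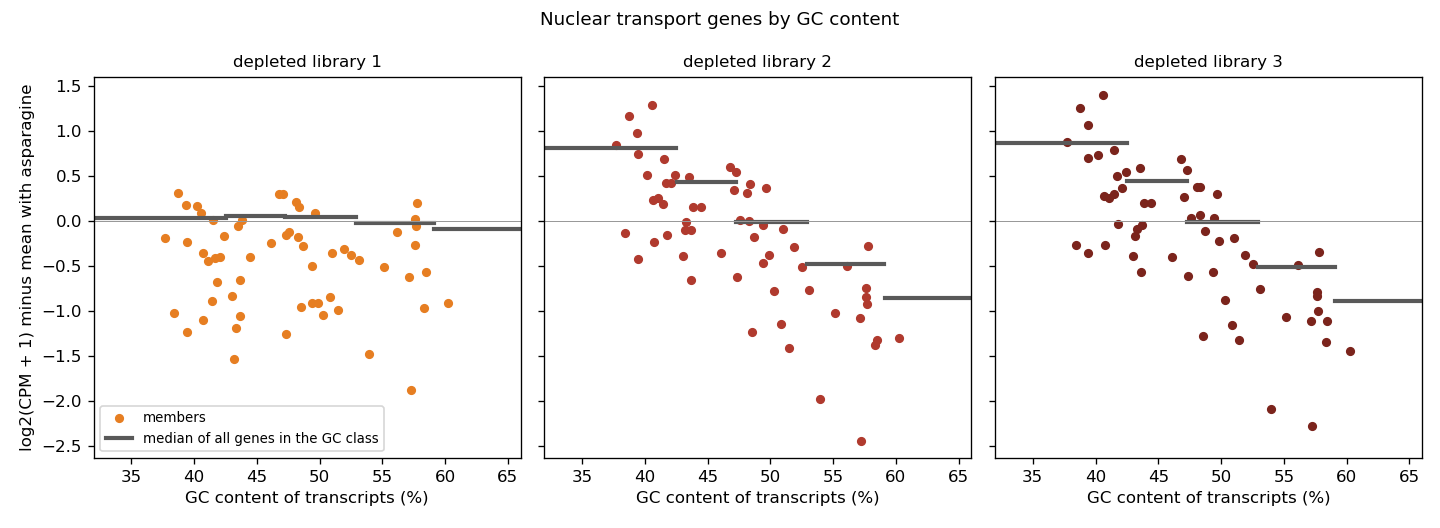
Panels show depleted libraries 1, 2 and 3. Points are the 59 members with a GC value, by the GC content of their transcripts in percent (x axis) and log2(CPM + 1) minus the mean with asparagine (y axis). Grey lines are the medians of all genes in 5 GC classes, which run from 0.81 to -0.86 in library 2 and from 0.033 to -0.091 in library 1. Most members lie at or below the grey lines in each panel.

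Genes of the Ran cycle had the largest median shift of pore subunits, transport receptors and Ran cycle genes, with 4 of 5 lower and a median log2 fold change of -1.0. RANBP1, which helps free Ran from transport receptors so that its GTP can be hydrolysed (chromosome 22, 20115938 to 20127357 on GRCh38), had 82.6, 58.1 and 53.7 CPM in depleted libraries 1, 2 and 3, against 222, 240.4 and 231 CPM in those with asparagine. Every depleted value lay below every value with asparagine, 3.57-fold lower on average (log2 fold change -1.84, SE 0.18, limma adjusted p = 0.000542). RAN, the GTPase itself (chromosome 12, 130871879 to 130877678), had 266, 220.2 and 212 CPM in depleted libraries 1, 2 and 3, against 495, 535 and 523 CPM in those with asparagine. The groups did not overlap and RAN was 2.22-fold lower (log2 fold change -1.16, SE 0.12, limma adjusted p = 0.000779). RCC1, the exchange factor that makes RanGTP at chromatin, had 231, 161 and 156 CPM in depleted libraries 1, 2 and 3, against 325, 343 and 318 CPM in those with asparagine (log2 fold change -0.86, adjusted p = 0.00658). RANBP3, a nuclear cofactor of XPO1, had 91.1, 53.4 and 62.2 CPM in depleted libraries 1, 2 and 3, against 137, 139 and 130.0 CPM in those with asparagine, with a log2 fold change of -1.0 (adjusted p = 0.00738). For RCC1 and RANBP3 too, all depleted libraries were below all others. After the GC correction these 4 log2 fold changes were -1.61, -1.24, -0.57 and -0.55, and all 4 passed.

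RANGAP1, the GTPase-activating protein, was the Ran cycle gene that did not pass. It had 481, 281 and 273 CPM in depleted libraries 1, 2 and 3, against 501, 487 and 433 CPM in those with asparagine, so library 1 lay among the libraries with asparagine and libraries 2 and 3 below them. The model gave a log2 fold change of -0.51 (95% interval -1.05 to 0.037; adjusted p = 0.103), or -0.77 without depleted library 1 (adjusted p = 5e-06). With the GC trend removed RANGAP1 stood at -0.09 and did not pass (adjusted p = 0.33). The ratio of RANBP1 to RANGAP1 within a library, which does not depend on library scaling, was 0.172, 0.207 and 0.197 in depleted libraries 1, 2 and 3, against 0.443, 0.493 and 0.534 with asparagine. The 3 depleted ratios were close to each other and below all the others. The reads of RAN and RANBP1 may be shared with processed pseudogenes of the same sequence, and without a stated strand setting those of RANBP1 cannot be told apart from the 393 exon bases it shares with TRMT2A on the other strand. TRMT2A fell as well, to 32 CPM on average in depleted cells, against 109 CPM with asparagine. RCC1 shares 242 exon bases with the host transcript SNHG3 on its own strand, which averaged 64.7 CPM in depleted cells and 98.5 CPM with asparagine.

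**Figure D3:**
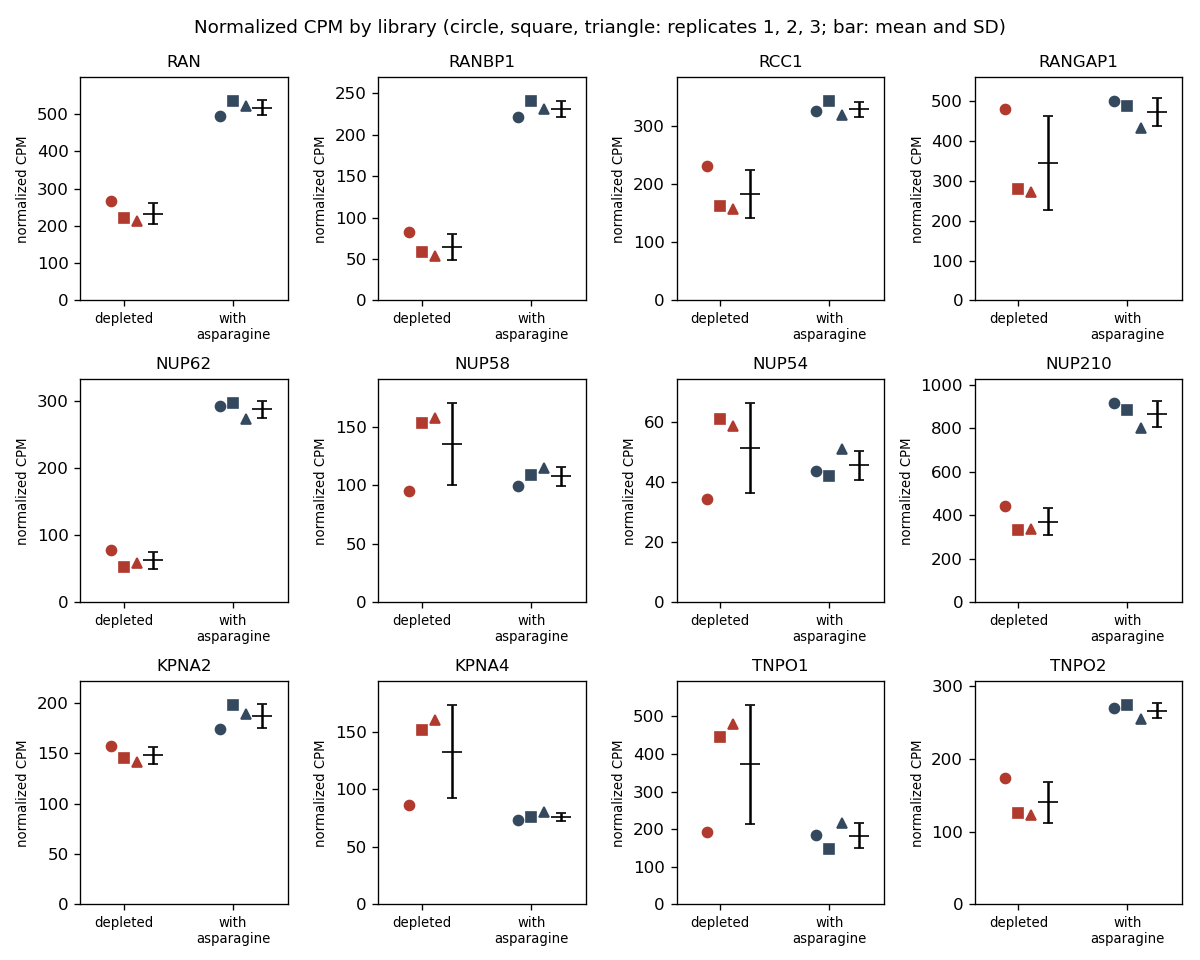
Normalized CPM (y axis, from 0) of 12 members in the 3 asparagine-depleted libraries (left) and the 3 with asparagine (right). Circles, squares and triangles are replicates 1, 2 and 3, and the bars give mean and SD. RAN, RANBP1, RCC1, NUP62, NUP210, KPNA2 and TNPO2 are lower in every depleted library, while TNPO1, NUP58 and NUP54 differ between depleted library 1 and libraries 2 and 3.

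The central channel holds a trimer of NUP62, NUP54 and NUP58, whose repeats form the permeability barrier. NUP62 (chromosome 19, 49906825 to 49929763) had 77.4, 52.1 and 58.7 CPM in depleted libraries 1, 2 and 3, against 293, 297 and 274 CPM in those with asparagine. It was 4.59-fold lower in depleted cells, with no overlap, the largest decrease of all members (log2 fold change -2.20, SE 0.16, limma adjusted p = 0.000252; -1.80 after the GC correction). Its partners did not pass. NUP58 had 95.5, 154 and 158 CPM in depleted libraries 1, 2 and 3, against 99.1, 109 and 115 CPM in those with asparagine (log2 fold change 0.30, 95% interval -0.20 to 0.80, adjusted p = 0.267; -0.13 after the GC correction, adjusted p = 0.143). NUP54 had 34.3, 61.2 and 58.9 CPM in depleted libraries 1, 2 and 3, against 43.7, 42.0 and 51.3 CPM in those with asparagine (log2 fold change 0.13, 95% interval -0.44 to 0.69, adjusted p = 0.665; -0.31 after the GC correction, adjusted p = 0.00875). Both partners were lowest in depleted library 1 and highest in libraries 2 and 3. The CPM ratio of NUP62 to NUP58 was 0.81, 0.339 and 0.372 in depleted libraries 1, 2 and 3, against 2.96, 2.73 and 2.37 with asparagine, and that of NUP62 to NUP54 was 2.26, 0.851 and 0.996 in depleted libraries 1, 2 and 3, against 6.71, 7.06 and 5.34 with asparagine. Per kilobase of the longest coding transcript, the mean levels in depleted cells were 17.5 CPM for NUP62, 21.7 for NUP54 and 21.3 for NUP58. With asparagine they were 80.2, 19.3 and 16.9 CPM per kilobase. The depleted means cover libraries that differ. In depleted library 1, NUP62 was at 21.6 CPM per kilobase, above NUP54 at 14.5 and NUP58 at 15.0. In depleted libraries 2 and 3, NUP62 was at 14.5 and 16.3, below NUP54 at 25.9 and 24.9 and NUP58 at 24.2 and 24.8. The GC content of the trimer genes differs, at 57.25% for NUP62, 42.1% for NUP54 and 42.4% for NUP58. Its part in these ratios and levels was not tested. NUP62 shares 626 exon bases with the stress factor gene ATF5 on the opposite strand and 336 with IL4I1 on its own. ATF5 averaged 799 CPM in depleted cells and 220.5 CPM with asparagine, so it moved the other way.

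**Figure D4:**
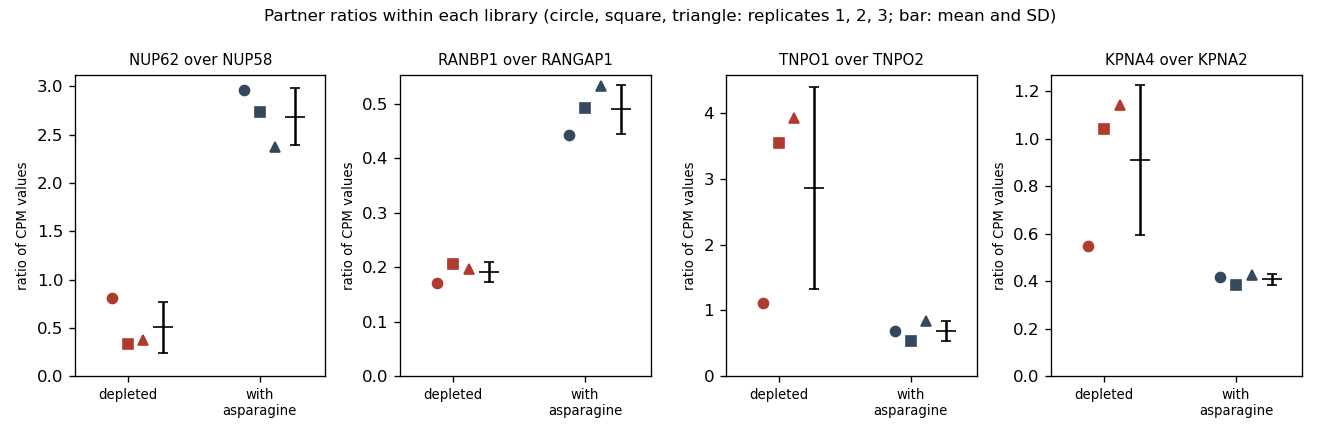
Ratio of the CPM values of 2 partner genes within each library (y axis, from 0), in the 3 depleted libraries (left) and the 3 with asparagine (right). Bars give mean and SD. NUP62 over NUP58 and RANBP1 over RANGAP1 are lower in all depleted libraries, and TNPO1 over TNPO2 and KPNA4 over KPNA2 are higher in all of them, with library 1 nearest to the libraries with asparagine in 3 of the 4 panels.

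Of 5 inner ring subunits, which link the channel to the membrane, 3 fell and 2 did not pass. NUP93, which anchors the channel trimer (chromosome 16, 56730105 to 56850286), had 93.9, 76.5 and 75.6 CPM in depleted libraries 1, 2 and 3, against 170.0, 179 and 161 CPM in those with asparagine (log2 fold change -1.05, SE 0.13, limma adjusted p = 0.00129). NUP205, a large scaffold solenoid, had 160.4, 213 and 226 CPM in the depleted libraries and 320.3, 328 and 358 CPM in those with asparagine (log2 fold change -0.76, adjusted p = 0.00778). Its paralog NUP188 had 227, 207 and 210.2 CPM in the depleted libraries and 291, 302 and 289 CPM in those with asparagine (log2 fold change -0.45, adjusted p = 0.0113). In each of these 3 the groups did not overlap, and after the GC correction they stood at -1.0, -1.12 and -0.31. NUP155 and NUP35, which contact the membrane, had log2 fold changes of -0.29 (adjusted p = 0.232) and 0.053 (adjusted p = 0.833). NUP35 had 17.1, 26.4 and 27.2 CPM in the depleted libraries and 21.6, 21.7 and 23.5 CPM in those with asparagine, so library 1 was below and libraries 2 and 3 above the libraries with asparagine. After the GC correction NUP155 and NUP35 were called lower, at -0.74 (adjusted p = 0.00016) and -0.46 (adjusted p = 0.0017).

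The Y complex builds the outer rings, and 2 of its 7 members fell while 5 did not pass. NUP85 (chromosome 17, 75205659 to 75235758) had 48.9, 36.3 and 38.8 CPM in depleted libraries 1, 2 and 3, against 101, 103 and 91.1 CPM in those with asparagine. It was 2.38-fold lower with no overlap (log2 fold change -1.24, SE 0.15, limma adjusted p = 0.00115; -1.16 after the GC correction). NUP160 had 101, 138 and 138 CPM in the depleted libraries and 171, 178 and 193 CPM in those with asparagine (log2 fold change -0.54, adjusted p = 0.0272; -0.93 after the GC correction, adjusted p = 8.5e-06). SEH1L, which also serves in a regulator of mTORC1, had 77.7, 112 and 126 CPM in the depleted libraries and 139.9, 143 and 157 CPM in those with asparagine, all depleted values below the others, but it did not pass (log2 fold change -0.50, adjusted p = 0.0636; -0.51 after the GC correction, adjusted p = 0.0316). NUP107 had 68.0, 112 and 111 CPM in the depleted libraries and 87.2, 92.2 and 100.5 CPM in those with asparagine, with a log2 fold change of 0.021 (95% interval -0.48 to 0.52, adjusted p = 0.939; -0.47 after the GC correction, adjusted p = 0.000554). NUP133, NUP43 and NUP37 stood at -0.27, 0.34 and 0.47 and did not pass (adjusted p = 0.263, 0.167 and 0.0526). After the GC correction 5 of the 7 were lower and 0 higher, against 34.4% and 35.1% of all genes. NUP43 and NUP37 were the others.

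Among the membrane anchors 1 of 3 passed. NUP210, a glycoprotein of the pore membrane (chromosome 3, 13316235 to 13420309), had 442, 332 and 339 CPM in depleted libraries 1, 2 and 3, against 915, 882 and 801 CPM in those with asparagine. It was the pore subunit with the highest CPM and was 2.33-fold lower in depleted cells without overlap (log2 fold change -1.23, SE 0.14, limma adjusted p = 0.00101; -0.78 after the GC correction). POM121 had 152, 82.8 and 78.5 CPM in the depleted libraries and 164, 172 and 139 CPM in those with asparagine (log2 fold change -0.66, adjusted p = 0.0706; -0.24 after the GC correction, adjusted p = 0.0743), where library 1 lay among the libraries with asparagine. Its reads are uncertain because POM121C is a near-identical copy. POM121C had 101, 47.2 and 46.2 CPM in the depleted libraries and 92.5, 93.5 and 75.5 CPM in those with asparagine and did not pass either (adjusted p = 0.195). NDC1 had 42.1, 77.9 and 76.3 CPM in the depleted libraries and 87.8, 89.6 and 97.8 CPM in those with asparagine, with no overlap (log2 fold change -0.53, adjusted p = 0.107; -1.04 after the GC correction, adjusted p = 1.85e-05).

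On the cytoplasmic face and among the mRNA export subunits, 3 of 6 fell. RAE1, an mRNA export factor that binds NUP98, had 52.2, 53.5 and 49.7 CPM in the depleted libraries and 74.6, 76.3 and 71.2 CPM in those with asparagine. The depleted libraries were close together and all below the others (log2 fold change -0.51, adjusted p = 0.01; -0.55 after the GC correction, adjusted p = 0.000171). AAAS, mutated in triple A syndrome, had 77.2, 51.3 and 52.0 CPM in the depleted libraries and 99.5, 94.8 and 85.6 CPM in those with asparagine (log2 fold change -0.65, adjusted p = 0.0256). It remained lower after the GC correction, at -0.23 (adjusted p = 0.00681). NUP214, the docking site of the mRNA export helicase, had 103, 105 and 98.5 CPM in the depleted libraries and 129, 123 and 132 CPM in those with asparagine (log2 fold change -0.33, adjusted p = 0.0399; -0.22 after the GC correction, adjusted p = 0.0283). NUP98 also encodes the Y complex subunit NUP96, since its product is cleaved. It had 258, 307 and 301 CPM in the depleted libraries and 227, 231 and 235 CPM in those with asparagine, each depleted value above the others, and narrowly missed the threshold (log2 fold change 0.32, adjusted p = 0.0541). With the GC trend removed NUP98 was called higher (0.22, adjusted p = 0.0116), the only pore subunit called higher there. NUP88, the partner of NUP214, had 106, 118 and 121 CPM in the depleted libraries and 97.5, 107 and 113 CPM in those with asparagine, which overlap (log2 fold change 0.12, adjusted p = 0.416; -0.22 after the GC correction, adjusted p = 0.0582). RANBP2, the large filament protein and SUMO ligase, had 52.8, 121 and 114 CPM in the depleted libraries and 132, 86.6 and 158 CPM in those with asparagine (log2 fold change -0.43, adjusted p = 0.343; -0.81 after the GC correction, adjusted p = 0.0164). It varied almost as much among the libraries with asparagine as among the depleted ones. Its reads may be shared with the RGPD copies of the gene.

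In the nuclear basket 0 of 3 members passed, with unadjusted p-values by limma of 0.223 for TPR, 0.145 for NUP50 and 0.928 for NUP153. After the GC correction 2 of 3 were called lower, TPR and NUP153, against 34.4% of all genes. TPR, the basket scaffold, had 51.5, 141 and 135 CPM in the depleted libraries and 174, 96.3 and 205 CPM in those with asparagine. Depleted library 1 was the lowest, and library 2 with asparagine lay below depleted libraries 2 and 3 (log2 fold change -0.60, 95% interval -1.66 to 0.46, adjusted p = 0.289; -0.98 after the GC correction, adjusted p = 0.0256). NUP50, which helps release importin alpha, had 110.1, 132 and 123 CPM in the depleted libraries and 135, 133 and 155 CPM in those with asparagine (log2 fold change -0.21, adjusted p = 0.202; -0.15 after the GC correction, adjusted p = 0.248). NUP153, which ties the basket to the pore, had 154, 226 and 233 CPM in the depleted libraries and 197, 199 and 214 CPM in those with asparagine (log2 fold change -0.017, adjusted p = 0.943; -0.33 after the GC correction, adjusted p = 0.00258). NUP50-AS1, transcribed opposite NUP50, rose, with 5.66, 6.71 and 6.49 CPM in the depleted libraries and 3.09, 3.34 and 2.67 CPM in those with asparagine and no overlap (log2 fold change 0.85, adjusted p = 0.00305). No position was found for NUP50-AS1, so the bases it shares with NUP50 are not known. Without a stated strand setting, reads from any shared bases cannot be told apart.

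Importin alpha proteins are the adaptors that read the classical nuclear localization signal, and of their 6 measured genes 1 fell, 2 rose and 3 did not pass. After the GC correction 2 of 6 were lower and 1 higher (33.3% and 16.7%), against 34.4% and 35.1% of all genes. KPNA2, the main subtype of dividing cells, had 157, 146 and 141 CPM in the depleted libraries and 174, 198 and 189 CPM in those with asparagine. All depleted values lay below the others (log2 fold change -0.33, adjusted p = 0.0447; -0.55 after the GC correction). KPNA4 had 86.5, 152 and 161 CPM in the depleted libraries and 73.2, 75.8 and 80.1 CPM in those with asparagine, with all depleted values above the others and library 1 nearest to them (log2 fold change 0.74, adjusted p = 0.0382). After the GC correction KPNA4 did not pass (0.17, adjusted p = 0.0791). KPNA5, the least abundant, had 6.13, 11.8 and 12.7 CPM in the depleted libraries and 4.86, 3.36 and 6.32 CPM in those with asparagine, so the groups overlapped in library 1 (log2 fold change 0.91, adjusted p = 0.0419; 0.31 after the correction). The ratio of KPNA4 to KPNA2 was 0.55, 1.04 and 1.14 in depleted libraries 1, 2 and 3, against 0.42, 0.383 and 0.424 with asparagine.

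KPNA3, the closest relative of KPNA4, had 31.3, 58.9 and 53.6 CPM in the depleted libraries and 64.6, 63.5 and 66.1 CPM in those with asparagine. It was lower in every depleted library without passing (log2 fold change -0.47, adjusted p = 0.132), and it passed after the GC correction (-1.09, adjusted p = 5.59e-05). KPNA6 had 75.7, 86.0 and 90.0 CPM in the depleted libraries and 84.0, 84.2 and 89.6 CPM in those with asparagine (log2 fold change -0.037, 95% interval -0.33 to 0.25, adjusted p = 0.809; -0.14 after the GC correction, adjusted p = 0.0779). KPNA1 stood at 0.32 (adjusted p = 0.239; 0.17 after the GC correction, adjusted p = 0.334), with library 1 below and libraries 2 and 3 above the others. CSE1L, which returns importin alpha to the cytoplasm, had 95, 167 and 175 CPM in the depleted libraries and 209, 221 and 245 CPM in those with asparagine. All its depleted values lay below the others, and it missed the threshold (log2 fold change -0.67, adjusted p = 0.0532). With the GC trend removed it passed (-1.24, adjusted p = 8.77e-06).

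KPNB1, the carrier that takes importin alpha through the pore, was the most abundant importin by CPM and had 474, 522 and 529 CPM in depleted libraries 1, 2 and 3, against 498, 530.5 and 526 CPM in those with asparagine. The groups overlapped, with a log2 fold change of -0.028 (95% interval -0.27 to 0.22, adjusted p = 0.829; -0.16 after the GC correction, adjusted p = 0.0155). KPNB1 and RAN had nearly the same CPM with asparagine, and their ratio was 1.79, 2.37 and 2.49 in depleted libraries 1, 2 and 3, against 1.01, 0.992 and 1.01 with asparagine. KPNB1 was called lower after the GC correction, and also with the GC content of its longest coding transcript (-0.199, adjusted p = 0.00872). Its value was positive, without passing in any of the 3, under trimmed mean scaling (0.0082), under quantile normalization (0.22) and without depleted library 1 (0.021).

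Of the 12 members of the importin beta family, KPNB1 included, 3 fell, 0 rose and 9 did not pass. IPO4, which imports histones and ribosomal proteins (chromosome 14, 24180219 to 24188964), had 78.9, 60.1 and 54.1 CPM in depleted libraries 1, 2 and 3, against 157, 158 and 135 CPM in those with asparagine. It was 2.33-fold lower with no overlap (log2 fold change -1.22, SE 0.17, limma adjusted p = 0.00186; -0.70 after the GC correction). TNPO2, a carrier of RNA-binding proteins such as hnRNPs, had 173, 125 and 123 CPM in the depleted libraries and 270.3, 274 and 256 CPM in those with asparagine (log2 fold change -0.94, adjusted p = 0.0038; -0.54 after the correction). IPO5, another carrier of ribosomal proteins and histones, had 155, 240.2 and 242 CPM in the depleted libraries and 354, 364 and 395 CPM in those with asparagine (log2 fold change -0.83, adjusted p = 0.0117; -0.98 after the correction). For IPO5, library 1 was the lowest of the depleted libraries, while for IPO4 and TNPO2 it was the highest.

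TNPO1 is the close paralog of TNPO2 and recognises the same kind of signal. It had 192, 445 and 481 CPM in depleted libraries 1, 2 and 3, against 185, 148 and 216 CPM in those with asparagine. Libraries 2 and 3 lay above every library with asparagine, while library 1 lay among them, and the difference did not pass (log2 fold change 0.93, 95% interval 0.082 to 1.78, adjusted p = 0.065; 1.35 without depleted library 1, adjusted p = 4.71e-06; 0.42 after the GC correction, adjusted p = 0.0412). The ratio of TNPO1 to TNPO2 was 1.11, 3.54 and 3.92 in depleted libraries 1, 2 and 3, against 0.685, 0.539 and 0.844 with asparagine, higher in every depleted library. The GC content of the pair differs, at 40.6% for TNPO1 and 57.1% for TNPO2. TNPO3, the importer of SR splicing proteins, had 206, 222 and 233 CPM in the depleted libraries and 168, 185 and 183 CPM in those with asparagine, with no overlap and just short of the threshold (log2 fold change 0.30, adjusted p = 0.0583; 0.19 after the GC correction, adjusted p = 0.0126). The other members that did not pass had log2 fold changes of -0.30 for IPO7, -0.19 for IPO9, -0.14 for IPO13, 0.17 for IPO8, 0.41 for IPO11 and 0.50 for RANBP6, a paralog of IPO5. Of these, IPO7 imports ribosomal proteins, IPO9 histones and actin, and IPO13 carries cargo both ways. After the GC correction IPO9 (-0.27, adjusted p = 0.00386) and IPO8 (-0.29, adjusted p = 0.0124) were called lower. IPO13 was called higher (0.28, adjusted p = 0.00253), and IPO7, IPO11 and RANBP6 did not pass. Of the 12 family members 6 were then lower and 3 higher, against 34.4% and 35.1% of all genes. IPO5P1, a pseudogene row whose reads may come from IPO5, had 24.7, 30.1 and 28.8 CPM in the depleted libraries and 23.2, 24.0 and 22.0 CPM in those with asparagine (adjusted p = 0.143).

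Of 6 exportins, CSE1L included, 2 fell and 4 did not pass. XPO5, which carries microRNA precursors out of the nucleus, had 73.9, 88.7 and 83.1 CPM in depleted libraries 1, 2 and 3, against 143, 160.3 and 157 CPM in those with asparagine (log2 fold change -0.90, SE 0.12, limma adjusted p = 0.00182; -0.89 after the GC correction). XPO6, the exporter of actin with profilin, had 214, 169.9 and 172 CPM in the depleted libraries and 285, 295 and 289 CPM in those with asparagine (log2 fold change -0.65, adjusted p = 0.00662; -0.47 after the GC correction, adjusted p = 9.86e-05). In both, all depleted values lay below the others. XPO5 shares 348 exon bases with POLR1C on the opposite strand, which averaged 22.5 CPM in depleted cells and 50.5 CPM with asparagine. XPO1, the general exporter of proteins with a leucine-rich signal, had 185, 392 and 424 CPM in depleted libraries 1, 2 and 3, against 346, 306 and 381 CPM in those with asparagine. Library 1 was far below and libraries 2 and 3 above the libraries with asparagine (log2 fold change -0.13, 95% interval -0.87 to 0.61, adjusted p = 0.742). Without depleted library 1 the XPO1 value was 0.25 (adjusted p = 0.028), and with the GC trend removed -0.60 (adjusted p = 0.00436). XPO4, the exporter of the translation factor eIF5A, and XPO7 stood at 0.51 and 0.30 (adjusted p = 0.191 and 0.101). After the GC correction XPO4 was called lower (-0.14, adjusted p = 0.0379) and XPO7 did not pass (0.14, adjusted p = 0.271). Of the 6 exportins 5 were then lower and 0 higher, against 34.4% and 35.1% of all genes. Beside the transport genes, RANBP9, a scaffold of a ubiquitin ligase named for binding Ran, had 118, 145 and 154 CPM in the depleted libraries and 95.7, 96.9 and 93.7 CPM in those with asparagine and rose (log2 fold change 0.53, adjusted p = 0.018; 0.35 after the GC correction, adjusted p = 0.00229). Its exons share 347 bases with NOL7 on the opposite strand, which averaged 85.4 CPM in depleted cells and 122 CPM with asparagine. Its relative RANBP10 had 47.2, 36.1 and 36.5 CPM in the depleted libraries and 52.4, 51.3 and 50.8 CPM in those with asparagine, all depleted values below the others without passing (log2 fold change -0.37, adjusted p = 0.0688; -0.025 after the GC correction, adjusted p = 0.736).

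Sequence before the RefSeq start was available for 52 members, as 250 bases from RefSeq on GRCh38.p14. The E-box CACGTG, the site bound by MYC with MAX, was searched on both strands. It was present in 7 of 52 members (13.5%) and in 6.34% of 35116 promoters of the same length. Those promoters, also used for the sites below, were not limited to the 11892 genes tested, while all 52 members were tested. The shares of members and of all promoters thus cover unlike sets. Of the 19 lower members with a promoter, 4 held the E-box. The stretches around these sites are shown for these lower members only, a choice made by their decrease. IPO7, KPNA3 and NUP50 also held the E-box and did not pass. The E-box is in capitals and each stretch runs 5′ to 3′ on the strand of the gene.
RAN: gcacgcgcgggcCACGTGggcgggcgccgc
IPO4: tgtcagaacctcCACGTGctgtccctcccc
TNPO2: ggcggctttctgCACGTGtttctcagccca
NUP188: ccgcggcaacgtCACGTGacgaaatccccg
NUP188: ggggcgagcggtCACGTGggcatggcgtct
These stretches are chr12:130871952-130871981 on the plus strand for RAN, chr14:24188828-24188857 on the minus strand for IPO4, chr19:12723939-12723968 on the minus strand for TNPO2, and chr9:128947610-128947639 on the plus strand and chr9:128947657-128947686 on the plus strand for NUP188. The matches begin 102, 29, 24, 77 and 30 bases before the RefSeq start. GENCODE starts some genes earlier, so the stretches of RAN, IPO4 and TNPO2 lie inside the GENCODE gene and those of NUP188 outside it. Members with an E-box had a median log2 fold change of -0.47, with 4 of 7 lower and 0 higher, and those without it -0.33, with 15 of 45 lower and 1 higher.

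The core of the site of nuclear respiratory factor 1, GCGCATG, was present in 9 of 52 members (17.3%) and in 3.77% of all promoters. Members with it had a median log2 fold change of -0.67, with 4 of 9 lower and 0 higher, and those without it -0.33, with 15 of 43 lower. It is shown for the lower members that held it, NUP62 first. CSE1L, IPO11, NUP107, NUP50 and POM121 also held it and did not pass. In NUP62 and RANBP3 matches on both strands overlap, so their capitals run on.
NUP62: cgggcccagtGCGCATGCGCagccgcgcgc
RANBP3: cgctgccactGCGCATGCGCccttcccggc
RCC1: attctctaactGCGCATGcttctgcgcac
TNPO2: cggcgaccctgGCGCATGgcaggacggga
The stretches are chr19:49929544-49929573 on the minus strand for NUP62, chr19:5978350-5978379 on the minus strand for RANBP3, chr1:28505944-28505972 on the plus strand for RCC1 and chr19:12724030-12724058 on the minus strand for TNPO2. Those of NUP62 and RCC1 lie inside the GENCODE gene, and those of RANBP3 and TNPO2 outside it. The CCAAT box was present in 21 members (40.4%, against 32% of all promoters). Their median log2 fold change was -0.19, with 7 of 21 lower, and that of the 31 without it -0.47, with 12 lower. The E2F core letters TTCCCGC and TTGGCGC were in 7 and 2 members (13.5% and 3.85%), against 5.52% and 2.56%. Members with TTCCCGC had a median of -0.54, with 4 of 7 lower, and those without it -0.33, with 15 of 45 lower. Members with TTGGCGC had a median of -0.088, with 0 of 2 lower, and those without it -0.40, with 19 of 50 lower. None of these contrasts between members with and without a site was tested. A match describes these letters and no binding was measured here.

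A list of related genes of nuclear transport and mRNA export outside these symbols had 27 measured members, of which 9 fell (33.3%), 5 rose (18.5%) and 13 did not pass, with a median log2 fold change of -0.11. Of all genes 26.2% fell and 25.1% rose, so the share that fell was somewhat above that of all genes and the share that rose below it. After the GC correction 12 were lower (44.4%) and 5 higher (18.5%), against 34.4% and 35.1% of all genes. Without depleted library 1, 12 were lower (44.4%) and 9 higher (33.3%), against 41.3% and 40.5% of all genes. The exportin of transfer RNA, XPOT, whose symbol has no number, had 366, 529 and 537 CPM in depleted libraries 1, 2 and 3, against 147, 156 and 163 CPM in those with asparagine. It was 3.07-fold higher with no overlap (log2 fold change 1.59, SE 0.17, limma adjusted p = 0.000779; 1.09 after the GC correction), against 0 of the 6 exportins among the members. ALYREF, an adaptor that loads mRNA onto the export receptor, had 75.2, 38.1 and 40.5 CPM in depleted libraries 1, 2 and 3, against 321, 362 and 329 CPM in those with asparagine (log2 fold change -2.76, SE 0.26, limma adjusted p = 0.000491). NUTF2, which carries Ran back into the nucleus, had 72.4, 39.9 and 46.7 CPM in the depleted libraries and 138, 143 and 139 CPM in those with asparagine (log2 fold change -1.43, adjusted p = 0.00265). NXT1, the partner of the mRNA export receptor NXF1, had 43.7, 26.1 and 24.6 CPM in the depleted libraries and 65.1, 68.5 and 59.5 CPM in those with asparagine (log2 fold change -1.05, adjusted p = 0.00934), while NXF1 stood at -0.11 (adjusted p = 0.489).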

How the data were processed

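RNA of 3 asparagine-depleted and 3 asparagine-supplied RS4;11 libraries was extracted with Trizol, per the labels' protocols. FastQC, STAR, and featureCounts of Subread were used with GRCh38, per the submitters' processing notes. Not given there or in the labels are tool versions, annotation, strand setting, scaling and any filter on low genes. The deposited values are a scaled signal per gene, named normalized CPM, whose column totals of 918783 to 1031234 are not equal, so the authors scaled by more than library size. Each value was a whole multiple of 1 step per column, within a tolerance of 1e-06 of its size, which gives 29971364 to 51127073 reads per library and 0.0598 to 0.092 CPM for 3 reads. A second, separate test of the steps did not accept them, so read numbers are inferred. Columns were matched to samples by group and replicate number in their names.

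Values were analysed as log2(CPM + 1) in R 4.3.3 with limma 3.58.1, with an intensity trend, group as the only term, two-sided p-values and Benjamini-Hochberg adjustment at 0.05 over 11892 genes that reached 1 CPM in 3 or more libraries. Log2 fold changes are depleted minus with asparagine, and understate changes of low genes. Values given as "-fold" are ratios of mean CPM. Adjusted p-values in the report are limma's. The model was tested on simulated data. Library scaling hides any change in total RNA.

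GC content was the median over a gene's protein-coding transcripts in GENCODE 29 (GRCh38), known for 95.5% of genes. The correction removed a lowess trend (span 0.3) per library. Levels per kilobase used the longest coding transcript. Positions are from GENCODE 29.

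The members and lists were chosen with earlier results of these data known. In each role group, values per library are given at least for the most abundant member, the 3 with the largest and the 1 with the smallest absolute change. Partner ratios were chosen after their values were seen and have no test. Alternatives were pseudocounts, filters, scalings, moderation without a trend, the replicate block, GC corrections, voom weights and left-out libraries.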

Additional observations from a re-analysis of the deposited data

How the results depend on the processing

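Of the 24 members that passed, 15 passed with the same direction under all their alternatives, 14 of them lower, and 0 changed direction under any. The other 9 were AAAS, KPNA2, KPNA4, KPNA5, NUP160, NUP188, NUP214, RAE1 and RANBP9. Of the 36 that did not pass, 34 passed under at least 1 of 21 alternatives and 19 changed direction under at least 1. Counts depended on the libraries. Leaving out each library in turn gave 3542 to 9725 genes called in all (6103 with all libraries), 1 to 22 members higher, 14 to 28 members lower and a median of -0.33 to -0.14. The count of higher members was 22 without depleted library 1, and 1 or 2 without any other library. The count of all genes called was 3877 without depleted library 2, and 3601 and 3542 without libraries 1 and 2 with asparagine. The number of lower members was 37 with the GC correction, 38 with the GC content of the longest coding transcript (chosen after seeing the data), and 34 with the correction and the replicate block. Without depleted libraries 2 and 3 the members' median log2 fold change was -0.39, against 0.016 over all genes. Calls in that fit assume that the lone depleted library varies like the others. Correcting for GC with depleted library 1 left out gave 8 higher and 40 lower members, where 8882 of 11352 genes were called in all. The cause was not tested.

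The values cannot show whether the replicate numbers pair the libraries. Deviations from the group means correlated at 0.083, -0.65 and 0.69 for numbers 1, 2 and 3. Depleted libraries 1 and 2 correlated best with libraries 2 and 3 with asparagine. Deviations within a group of 3 are not independent, and those of depleted libraries 2 and 3 largely mirror those of library 1. With the replicate block 5 members were higher and 20 lower. Count models on the recovered reads, edgeR and DESeq2, were planned and not run, because a second test of the steps did not accept the values as whole reads. With voom weights on these reads 3 members were higher and 20 lower, where 6018 of 11892 genes were called in all. Depth limits little here, since each member had at least 110 reads per library, while 3 libraries per group limit the precision. Intervals cover the spread between libraries only.

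Members with a changed direction did not pass in the main comparison. Their log2 fold changes were, with the GC correction, and the same with the replicate block added, IPO11 -0.162, IPO13 0.283, IPO8 -0.293, NUP107 -0.467, NUP35 -0.455, NUP37 -0.0568, NUP43 -0.0231, NUP54 -0.31, NUP58 -0.128, NUP88 -0.224, XPO4 -0.141. With the GC content of the longest transcript they were IPO11 -0.133, IPO13 0.326, IPO8 -0.245, KPNA1 -0.192, NUP107 -0.455, NUP35 -0.452, NUP37 -0.115, NUP43 -0.0592, NUP54 -0.386, NUP58 -0.404, RANBP6 -0.0652, XPO4 -0.123. Corrected, with depleted library 1 left out, they were IPO11 -0.116, IPO13 0.3, IPO8 -0.213, NUP107 -0.46, NUP35 -0.488, NUP37 -0.157, NUP54 -0.244, NUP58 -0.0837, NUP88 -0.314, RANBP10 0.00703, XPO4 -0.113. Without depleted libraries 2 and 3 they were IPO11 -0.235, IPO13 0.201, IPO8 -0.414, KPNA1 -0.155, NUP107 -0.447, NUP35 -0.359, NUP43 -0.0538, NUP54 -0.398, NUP58 -0.17, RANGAP1 0.0253, XPO4 -0.189. Quantile normalization gave KPNA6 0.0458, KPNB1 0.223, NUP153 0.12, NUP35 -0.0131, XPO1 0.0933, and trimmed mean scaling KPNB1 0.0082, NUP153 0.0197. Leaving out 1 library at a time gave ranges that cross 0 of -0.0896 to 0.0344 for KPNA6, -0.0579 to 0.0209 for KPNB1, -0.098 to 0.255 for NUP107, -0.124 to 0.175 for NUP153, -0.0606 to 0.259 for NUP35, -0.0164 to 0.393 for NUP54, -0.347 to 0.248 for XPO1.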
